A study of Mus musculus with 2 samples.

Results

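In 2 single-cell libraries of mouse lung CD4+ cells, 104 of 11739 filtered cells were plasmacytoid-type dendritic cells, chosen by their measured UMIs of Siglech, Ly6d, the Cd3 genes and Chil3 (UMIs are unique molecular identifiers, each standing for 1 captured transcript molecule). The rule took barcodes with at least 500 genes, under 10% mitochondrial UMIs, 0 UMIs of the T cell receptor complex genes Cd3d, Cd3e and Cd3g, under 10 UMIs of the macrophage gene Chil3, and either at least 2 UMIs of Siglech or 1 UMI of Siglech with at least 1 of Ly6d. It found 43 of 5433 cells in the library labelled Nfe2l2fl/fl, called the control below, and 61 of 6306 in the library labelled Cd4cre Nfe2l2fl/fl, called Cd4cre below. Both groups carry loxP-flanked (floxed) Nfe2l2, the gene of the transcription factor NRF2, and the Cd4cre group also carries Cre recombinase driven by Cd4, meant by the study's design to delete Nfe2l2 in T cells and to show which pathways depend on NRF2. The mice were 8 to 15 weeks old and lungs were taken 16 h after the last intranasal dose. The labels describe dosing with PAO and Ova, dosing with the house dust mite protein Der f 1, and a mixed bone marrow transfer, for both libraries alike, and do not say which applies here. The number of mice, their sex and the floxed exons are not in the labels. Each group is 1 library, so nothing below was tested against the spread between mice, and every interval covers counting error only.

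The library labelled Cd4cre had more Nfe2l2 transcripts, not fewer, in all 3 classes examined, and each direction given below rests on the labels alone. The libraries held 5729 and 6808 barcodes, of which 296 and 502 failed the cell filters. They shared 49 barcodes, none of them among the 104 cells. T cells, with at least 2 UMIs over the Cd3 genes, numbered 4958 and 4654. Macrophages, with at least 10 UMIs of Chil3 and 3 of Lyz2, numbered 277 and 681, although the material is labelled CD4+. Of these, 33 and 60 barcodes met both rules and stand in both classes. No doublet caller was run.

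Plasmacytoid dendritic cells are a rare lineage of the bone marrow that circulates and enters inflamed tissue. They carry the endosomal nucleic acid receptors TLR7 and TLR9, and on sensing viral RNA or DNA they can release large amounts of type I interferon. The E protein TCF4 (E2-2) keeps their identity together with partners such as SPIB, IRF8, BCL11A and RUNX2, against the inhibitor ID2. In the mouse they are recognised by the lectin Siglec-H and by BST2, and many carry surface CD4 and genes shared with lymphocytes. In the airway they have been linked to tolerance to inhaled antigen.

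The DNA just upstream of the genes that lead these cells is shown first, because the letters CAGGTG are one form of the E-box (CANNTG) that TCF4 and other E proteins can bind. These 5 are the highest-ranked genes left after a choice among the 30 leading genes described below. The choice kept genes with a single upstream window in RefSeq (build GRCm38.p6). It also left out genes that share a chromosome with Mzb1 and Tcf4. Mzb1 ranks above Atp1b1 and Cd300c, so the count of windows with the letters holds for the 5 shown only. Each run covers up to 250 bases that end at the gene's start in RefSeq, 5′ to 3′ on the gene's strand, shortened where an annotated exon overlaps. Capitals mark CAGGTG or its complement CACCTG.
Klk1, chr7:44225110-44225359: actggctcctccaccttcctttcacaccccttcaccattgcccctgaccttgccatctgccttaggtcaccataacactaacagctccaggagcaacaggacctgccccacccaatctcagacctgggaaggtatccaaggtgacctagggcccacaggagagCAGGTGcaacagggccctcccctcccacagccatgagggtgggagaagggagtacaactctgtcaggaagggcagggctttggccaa
Siglech, chr7:55767934-55768177: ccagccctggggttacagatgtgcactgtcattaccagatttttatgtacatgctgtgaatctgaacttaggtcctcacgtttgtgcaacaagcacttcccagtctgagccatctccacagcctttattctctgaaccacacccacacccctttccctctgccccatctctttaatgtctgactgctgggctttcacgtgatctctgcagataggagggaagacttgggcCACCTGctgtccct
Ccr9, chr9:123766961-123767168: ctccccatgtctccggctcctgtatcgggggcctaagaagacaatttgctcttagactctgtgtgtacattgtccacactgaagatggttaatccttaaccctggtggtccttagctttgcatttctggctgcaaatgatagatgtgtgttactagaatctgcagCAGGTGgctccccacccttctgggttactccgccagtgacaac
Atp1b1, chr1:164458356-164458605: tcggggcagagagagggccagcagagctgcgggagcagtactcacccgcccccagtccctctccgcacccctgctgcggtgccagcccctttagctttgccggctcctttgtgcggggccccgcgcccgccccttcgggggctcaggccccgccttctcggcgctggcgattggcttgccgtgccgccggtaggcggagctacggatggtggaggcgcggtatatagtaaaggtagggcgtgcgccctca
Cd300c, chr11:114960508-114960757: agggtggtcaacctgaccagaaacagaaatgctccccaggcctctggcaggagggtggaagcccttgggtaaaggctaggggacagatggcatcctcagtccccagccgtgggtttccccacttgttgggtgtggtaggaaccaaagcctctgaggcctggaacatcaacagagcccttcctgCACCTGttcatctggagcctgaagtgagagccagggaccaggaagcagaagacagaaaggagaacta
Of these 5 windows, the 4 of Klk1, Siglech, Ccr9 and Cd300c hold the letters and that of Atp1b1 does not. In GRCm38 the genes lie on the plus strand for Klk1, Siglech and Ccr9 and on the minus strand for Atp1b1 and Cd300c.

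Among the 20 leading genes that had a window, 8 (40.0%) held CAGGTG on either strand, against 5252 of 27025 genes (19.4%). By window the shares were 27.6% of 29 and 17.2% of 32851, since some genes have several. Over the 160 genes that were at least 4-fold above both other classes, 117 had a window and 28 of them (23.9%) held CAGGTG. The wider E-box CANNTG, which contains CAGGTG, was in 18 of the 20 (90.0%) and in 69.3% of all genes. The letters GAGGAAG, a form of the site of ETS factors such as SPIB and PU.1, were in 5 of the 20 against 3244 of 27025 genes, and GAAANNGAA, a form of the site of interferon regulatory factors, in 3 against 2211. These are matches of letters in a short window and no binding was measured.

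Siglech (chromosome 7, 55768178 to 55778925, plus strand, GRCm38), which encodes Siglec-H, chose the cells together with Ly6d, so the levels of both are a description. Per cell, Siglech had a lowest value of 1, a median of 17 and a highest of 30 UMIs in the 43 control cells, and 2, 15 and 37 in the 61 Cd4cre cells. Ly6d (chromosome 15, 74762056 to 74763620, minus strand), a surface protein of early lymphoid progenitors, had 0, 31 and 95 UMIs per control cell and 1, 30 and 149 per Cd4cre cell. Most cells lay far above the threshold: 39 control and 55 Cd4cre cells had at least 6 UMIs of Siglech. Between 2 and 5 UMIs lay 2 and 6 cells, and 2 control cells had 1 UMI with Ly6d. Flt3, the receptor for the growth factor that drives dendritic cell development, was named as a marker but not used to choose cells, and was seen in 16 and 29 of them.

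The cells just outside the rule were few by Siglech and more by Cd3. In the control library 3 barcodes had 1 UMI of Siglech and no Ly6d, and none did in the other. These 3 held 133 CPM of Siglech (CPM is the count of a gene scaled to a total of 1000000 UMIs, summed over a group of cells) and 489 of Ccr9. The 2 control members without Ly6d had 598 CPM of Siglech, 99.6 of Ccr9 and no Irf8. A larger group, 18 control and 26 Cd4cre barcodes, had at least 2 UMIs of Siglech but also a Cd3 UMI. Their median depth was 12335.5 and 10806 UMIs, against 7830 and 7268 in the members, and only 2 and 7 of them had exactly 1 Cd3 UMI. Barcodes at or over the Chil3 limit with at least 2 UMIs of Siglech numbered 2 and 2.

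Members were 0.791% of filtered control cells (exact binomial interval 0.573 to 1.06) and 0.967% of filtered Cd4cre cells (0.741 to 1.24). The difference was 0.176 percentage points (-0.171 to 0.516), so it was not detectable at this depth. The denominator turned the direction: of cells outside the T cells, members were 9.05% of 475 in the control and 3.69% of 1652 in Cd4cre, a difference of -5.36 points (-8.39 to -2.88). Macrophages were 5.10% and 10.8% of filtered cells, and how cells were sorted is not in the labels. The members' summed depth was 316802 and 434132 UMIs, and single cells held between 1160 and 11463 UMIs in the control and between 1807 and 12443 in Cd4cre. Their median depth exceeded that of macrophages (2947 and 3369) and of T cells (6510.5 and 5684).

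Markers of the label were present beyond the genes of the rule. The list of 22 plasmacytoid markers includes Siglech and Ly6d, which chose the cells and are also counted here. All 22 had UMIs, and 21 passed a minimum of 50 CPM in members of both libraries. Of the 21, 20 were at least 4-fold above both macrophages and T cells in both libraries (10 CPM added to each level). The exception was Tlr7 at 2.85-fold, and Tlr9 was under the minimum. Among all genes the same held for 160 of 2523, or 6.34%. Since the rule and the measured genes come from the same cells, these figures describe the cells and test nothing. Klk1, a kallikrein protease, had 0, 6 and 60 UMIs per control cell (lowest, median, highest) and 0, 3 and 123 per Cd4cre cell. Cox6a2, a cytochrome oxidase subunit better known from muscle, had 0, 16 and 44 UMIs and 0, 10 and 49. The chemokine receptor gene Ccr9, which guides cells to the gut and thymus, had 0, 8 and 39 UMIs and 0, 8 and 37. The values of the libraries overlapped in all 3 genes, and the highest single cell for Klk1 and for Cox6a2 was in Cd4cre.

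**Figure D1:**
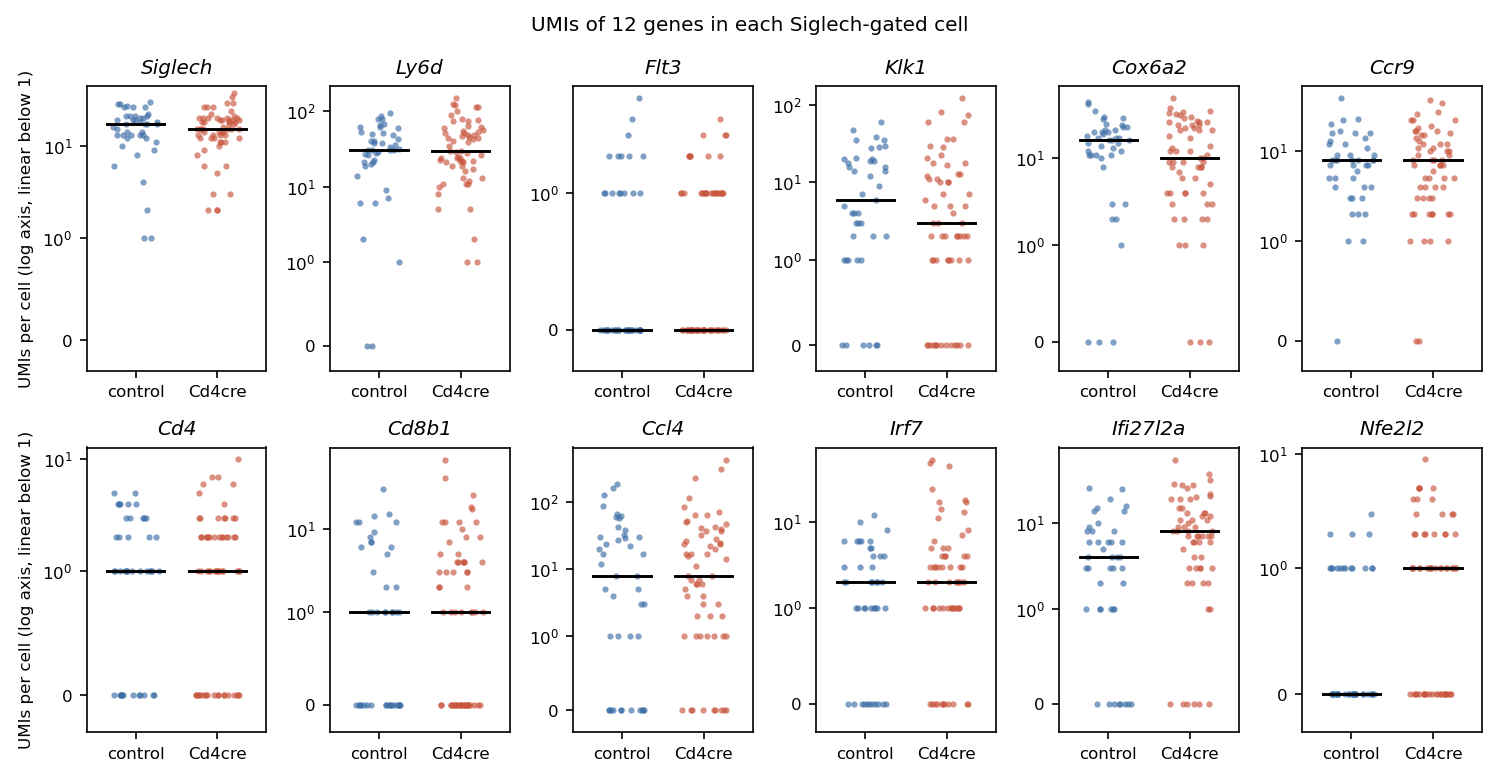
UMIs per cell (vertical axis, logarithmic above 1 and linear below) of 12 genes in the 43 control cells (blue) and the 61 Cd4cre cells (red), with each point 1 cell and each bar the median. Siglech and Ly6d chose the cells. The median of Nfe2l2 is 0 in the control and 1 in Cd4cre, and 3 Cd4cre cells stand apart in Irf7 at 53, 48 and 45 UMIs.

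As levels, Ly6d stood at 4905 CPM (exact Poisson interval 4664 to 5155) in control members and 5897 (5671 to 6130) in Cd4cre members, against 18.9 and 7.78 CPM in macrophages and 12.9 and 23.6 in T cells. Klk1 stood at 1742 and 1824 CPM against 9.93 and 0.676 in macrophages and 2.11 and 4.16 in T cells. It has close relatives in the kallikrein family with which reads may be shared. Siglech was at 2203 and 2214 CPM against 23.8 and 6.09 in macrophages and 5.23 and 8.87 in T cells. Free RNA in the droplets also gives UMIs to cells that lack a gene. The low values in the other classes are only an upper limit for it, since barcodes carrying Siglech beside Cd3 stayed in the T cells. Barcodes with at least 2 UMIs of Siglech and a Cd3 UMI held 235 and 359 UMIs of Siglech. Of these, 29 and 77 were in barcodes with exactly 1 Cd3 UMI, and the others count as T cells. The T cell levels and ratios below include them. The lowest of the 4 ratios (10 CPM added to each level) was 170.3-fold for Ly6d, 88.0-fold for Klk1 and 65.4-fold for Siglech. Flt3 was at 97.9 and 101 CPM in members, at 0 and 1.35 in macrophages and at 0.355 and 0.558 in T cells. With every cell thinned to 2000 UMIs, Flt3 was seen in 24.4% and 20.0% of members and in 0.0618% and 0.0441% of T cells.

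**Figure D2:**
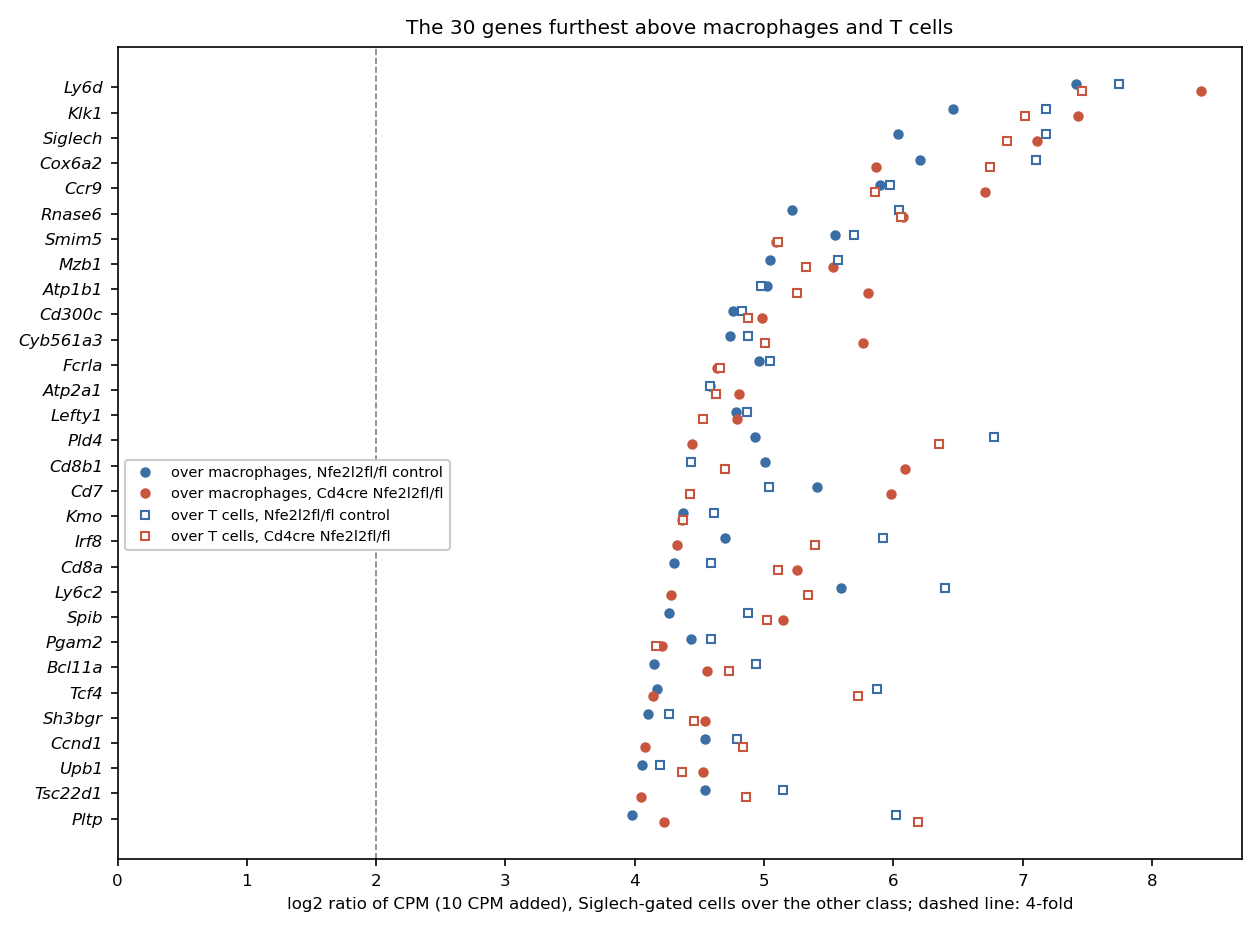
The 30 genes with the highest lowest-of-4 log2 ratio of CPM (10 CPM added) of members over macrophages (filled circles) and over T cells (open squares), in the control (blue) and Cd4cre (red) libraries. All lie right of the dashed line at 4-fold, with Ly6d at the top and Pltp, at 3.98 for its lowest ratio, at the bottom.

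The 30 leading genes fell into several roles. Membrane and secretory proteins included Atp1b1, a sodium pump subunit (574 and 624 CPM in members, at most 8.61 in the other classes), Cd300c, an activating receptor (287 and 318 CPM, at most 1.18), and Pld4, an endolysosomal nuclease that degrades single-stranded nucleic acid (1569 and 1477 CPM, at most 58.5). Rnase6, a ribonuclease, had 805 and 845 CPM and Cyb561a3, a lysosomal iron reductase, 944 and 1050. Mzb1, a chaperone of secretory B lineage cells, had 549 and 484 CPM, and Fcrla, an intracellular relative of Fc receptors, 363 and 281. Pltp, the phospholipid transfer protein, had 1212 and 1456 CPM, and Lefty1, a secreted TGF-beta family inhibitor, 347 and 286.

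Several leading genes have textbook roles far from the dendritic cell. Cox6a2, the calcium pump gene Atp2a1 (253 and 279 CPM), the glycolytic enzyme gene Pgam2 (249 and 175) and Sh3bgr (196 and 230) are best known from striated muscle. Sarcomere genes were not examined. Kmo, an enzyme of tryptophan breakdown, had 259 and 217 CPM, and Upb1, an enzyme of pyrimidine breakdown, 189 and 221. Smim5, a small membrane protein, was at 597 (515 to 688) and 401 (343.5 to 465) CPM, a log2 ratio between libraries of -0.57 (exact conditional interval -0.88 to -0.27). Ccnd1, the G1 cyclin D1, had 316 and 341 CPM, while mitotic genes were near 0: Cdk1, Ccnb1, Ccnb2, Ccna2, Rrm2, Birc5 and Ube2c had 0 UMIs in all members. All 30 genes stayed at least 4-fold above both classes in both libraries under each of the alternatives run.

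The transcription factors that keep this lineage were present in both libraries. Tcf4 had 975 and 1009 CPM (log2 ratio 0.05, -0.16 to 0.26) against 44.7 and 47.7 in macrophages and 6.78 and 9.28 in T cells. Irf8 had 2743 and 2490 CPM, Spib 316 and 369, Bcl11a 325 and 297, Runx2 366 and 283, and Mef2c 341 and 293. Of 31 dendritic cell transcription factors 16 reached the minimum, and 7 of these were at least 4-fold above both classes, against 6.34% of all genes. At least 2-fold above were 12 of 20 factors against macrophages (20.4% of all genes) and 12 of 23 against T cells (16.5% of all genes). At least 2-fold below were 5 of 20 factors against macrophages (15.0% of all genes) and 5 of 23 against T cells (13.3% of all genes). Id2, which opposes TCF4 and is high in conventional dendritic cells, was at 9.47 CPM (3 UMIs) and 36.9 CPM (16 UMIs) in members, against 431 and 454 in macrophages and 637 and 686 in T cells. Zbtb46, a factor of conventional dendritic cells, had 0 and 1 UMI. Over the 22 factors with at least 20 UMIs, 11 were higher and 11 lower in Cd4cre. The median log2 ratio (10 CPM added, as in every list median below) was -0.02 (-0.23 to 0.22), beside -0.02 over 4524 genes.

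Some factors differed by more than counting error. Tcf3, the E protein E2A, had 21 UMIs (66.3 CPM) in the control and 11 (25.3 CPM) in Cd4cre, a log2 ratio of -1.39 (-2.59 to -0.27). Zeb2, a repressor needed in this lineage, had 167 and 106 CPM (-0.66, -1.26 to -0.06). Stat3, which acts below the FLT3 receptor, had 202 and 302 CPM (0.58, 0.14 to 1.03). Id3 had 88.4 and 34.6 CPM, but 16 of its 28 control UMIs were in 1 cell. With 31 factors compared and no replicate, intervals that miss 0 are not tests.

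Surface receptors with inhibitory or adaptor roles lay on both sides of macrophages, more of them above. Bst2, which encodes the antigen also called PDCA-1, had 0, 35 and 55 UMIs per control cell (lowest, median, highest) and 5, 37 and 65 per Cd4cre cell. Its level was 4637 and 4888 CPM against 472 and 463 in macrophages and 210.0 and 292 in T cells. Tyrobp, the adaptor DAP12 through which Siglec-H signals, had 4845 and 5441 CPM in members and 2069 and 1717 in macrophages. Fcer1g, another signalling adaptor, had 1070 and 1327 CPM, below the 1301 and 1625 of macrophages. The collagen receptor gene Lair1 had 694 and 716 CPM, Clec12a, an inhibitory lectin, 234 and 235, and Ptprs, a phosphatase receptor, 170.5 and 159. Of 12 genes of this list that passed the minimum, 6 were at least 4-fold above both classes, against 160 of 2523 genes (6.34%). At least 2-fold above macrophages were 8 of 14, against 20.4% of all genes, and at least 2-fold below were 3 of 14, against 15.0% of all genes.

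Genes of endosomal nucleic acid sensing were present, with the receptors themselves at low levels. Tlr7, the receptor for single-stranded RNA, had 30 UMIs in 20 control cells (94.7 CPM, 63.9 to 135) and 66 in 35 Cd4cre cells (152 CPM, 118 to 193), against 26.8 and 19.3 CPM in macrophages. Tlr9, the receptor for CpG DNA, had 14 and 26 UMIs (44.2 and 59.9 CPM) and 0 and 0.676 CPM in macrophages. Tlr3 had no UMI in any member. The chaperone gene Unc93b1, which carries these receptors to endosomes, was at 953 and 933 CPM, at least 5.17-fold above both classes, and Pacsin1, needed for the interferon response to TLR7 and TLR9, at 603 and 548. Slc15a4, a lysosomal transporter required for the same response, had 148 and 111 CPM. Cnpy3, a chaperone of TLRs, had 161 and 92.1 CPM (log2 ratio -0.81, -1.44 to -0.18). Ctsl, a protease that cleaves these receptors, had 2036 and 1725 CPM, against 1899 and 992 in macrophages.

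Interferon transcripts were almost undetected. Of 20 type I and III interferon genes, 19 had 0 UMIs in all 104 cells, among them every Ifna gene listed and Ifnb1, and Ifnl2 had 1 UMI in 1 control cell. A count of 0 allows up to 9.47 CPM in control members and 6.91 in Cd4cre members (3 UMIs of each total). In macrophages Ifnb1 had 6.95 and 32.5 CPM. The Ifna genes are near-identical copies, so reads from them may also have been left uncounted. The receptor genes were present: Ifnar1 had 281 and 309 CPM and Ifnar2 458 and 449, above macrophages (35.7 and 59.2 for Ifnar1, 115 and 122 for Ifnar2). Tyk2, a kinase bound to IFNAR1, had 18 UMIs and 8 UMIs (56.8 and 18.4 CPM, log2 ratio -1.62, -3.03 to -0.35).

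Class II antigen presentation genes ranged widely between cells. H2-Aa had 0, 9 and 52 UMIs per control cell (lowest, median, highest) and 0, 11 and 131 per Cd4cre cell, and its invariant chain partner Cd74 had 0, 77 and 189 and 0, 69 and 292. The control cell with the highest value of both had only 2 UMIs of Siglech and 0 of Ly6d, Klk1, Cox6a2 and Ccr9. As levels H2-Aa was at 1944 and 2631 CPM in members, 377 and 944 in macrophages and 20.3 and 76.6 in T cells. Of 16 genes of the list with at least 20 UMIs, 15 were higher in Cd4cre, against 2178 of 4524 genes in all, and the median log2 ratio was 0.26 (0.08 to 0.39). Without the 3 cells highest in the interferon response genes in each library, 13 of 16 were higher and the median was 0.17 (0.05 to 0.33). The sizes were small: H2-Aa 0.44 (0.29 to 0.58), H2-Ab1 0.32 (0.12 to 0.52), B2m 0.26 and H2-K1 0.27. For H2-Aa the ratio was larger in the other classes, 1.91 in T cells and 1.32 in macrophages, and a part of free RNA in the members' value was not tested. Costimulatory genes were near 0, with no UMI of Cd80, 0 and 6 of Cd86, and 0 and 8 of Cd40.

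Among trafficking genes Ccr9 was at least 4-fold above both other classes. It was at 1237 and 1357 CPM, against 10.9 and 3.04 in macrophages and 9.87 and 13.6 in T cells. Selplg, the selectin ligand PSGL-1, had 1193 and 1219 CPM. Cxcr3, the receptor for interferon-induced chemokines, had 72.6 and 50.7 CPM. Cxcr4, the receptor for the marrow chemokine CXCL12, had 12 and 36 UMIs (37.9 and 82.9 CPM, log2 ratio 1.13, 0.15 to 2.21). Cxcr6, high in T cells at 598 and 453 CPM, had 0 UMIs in members.

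The chemokine gene Ccl4 (chromosome 11, 83662584 to 83664683, plus strand), whose product draws monocytes and T cells, had the highest Fano factor of the genes ranked. The ranking used the lower value of the 2 libraries. It left out antigen receptor, ribosomal protein, mitochondrial, hemoglobin and sex-linked genes and unnamed gene models. Ccl4 had 0, 8 and 186 UMIs per control cell (lowest, median, highest) and 0, 8 and 431 per Cd4cre cell. The 3 highest cells held 40.0% of its UMIs in the control and 46.5% in Cd4cre, while 11 and 9 cells had none. After thinning to 2000 UMIs its Fano factor (variance over mean) was 18.0 and 29.2. The medians were 1.31 and 1.30 over 260 genes with a thinned mean of at least 1, with no gene group left out. Klk1 reached 5.92 and 11.5, Cd74 7.35 and 11.4, and Ly6d 4.27 and 7.06. In sum Ccl4 stood at 3785 and 4840 CPM against 884 and 1304 in macrophages and 45.4 and 68.8 in T cells. Its neighbour in function Ccl3 had only 88.4 and 82.9 CPM.

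Other cytokine genes were low. Il12a, a subunit of IL-12 and IL-35, had 12 and 24 UMIs, and Il12b had none. Il6 had 3 UMIs in the control and none in Cd4cre. Grn, progranulin, which helps deliver DNA to TLR9, was high at 1862 and 2347 CPM against 500.2 and 547 in macrophages (log2 ratio between libraries 0.33, 0.19 to 0.48). The endoplasmic reticulum and secretion list had 17 of 34 genes higher in Cd4cre and a median log2 ratio of 0.00 (-0.10 to 0.07). Xbp1, the factor of the secretory programme, had 833 and 739 CPM in members against 132 and 155 in macrophages and 80.5 and 88.5 in T cells. Growth factor receptors included Csf2rb2 (275 and 274 CPM, near-identical to Csf2rb, so the split is uncertain), Il7r (183 and 161) and Il3ra (72.6 and 46.1).

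Of the genes shared with lymphocytes that reached the minimum, 8 of 15 were at least 4-fold above both classes, against 6.34% of all genes. At least 2-fold above T cells were 9 of 19, against 16.5% of all genes. At least 2-fold below T cells were 5 of 19, against 13.3% of all genes, and 6 of all 29 had no UMI. Dntt, the polymerase that adds bases at V(D)J joints, had 64 UMIs in 27 control cells (202 CPM, 156 to 258) and 44 in 27 Cd4cre cells (101 CPM, 73.6 to 136), a log2 ratio of -0.995 (-1.58 to -0.42). Its partners Rag1 and Rag2 had no UMI. Cd7, a surface protein of T and NK precursors, had 836 and 707 CPM, and the B cell linker gene Blnk 325 and 392. Ighm, the heavy chain gene of IgM, had 780 and 788 CPM against 33.7 and 16.9 in macrophages and 99.8 and 130 in T cells. Iglc3, a light chain gene with close copies, had 1029 and 785 CPM and at most 4.96 in the other classes. Both were seen in nearly all members: Ighm in 43 and 60, Iglc3 in 40 and 56. Of 7 B cell markers 5 had no UMI in any member, among them Ms4a1, Pax5, Ebf1 and Fcmr. Cd79b went the other way, with 12 UMIs in members of each library (37.9 and 27.6 CPM). All 7 together summed to 1.99 and 3.04 CPM in macrophages and 7.87 and 12.6 in T cells.

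Cd4 itself, on which the material is labelled, was seen in 31 of 43 control cells and 43 of 61 Cd4cre cells. It had 0, 1 and 5 UMIs per control cell (lowest, median, highest) and 0, 1 and 10 per Cd4cre cell. The level was 218 (169 to 276) and 251 (206 to 303) CPM, against 263 and 340 CPM in T cells and 35.7 and 22.3 in macrophages. The interval of the control members includes the T cell level, and that of the Cd4cre members lies below it. With cells thinned to 2000 UMIs, 39.0% and 35% of members had Cd4, as did 40.1% and 49.0% of T cells and 4.95% and 2.996% of macrophages. Cd8a and Cd8b1, the chains of the CD8 co-receptor, were on as well: Cd8b1 had 502 and 719 CPM against 13.7 and 18.1 in T cells, and Cd8a 265 and 385 against 1.45 and 1.46. Both were seen together in 16 and 22 cells and either in 32 and 43. Their UMIs were uneven, with 37.1% and 42.6% of Cd8b1 in the 3 highest cells.

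Markers of other lineages ranged from 0 UMIs to levels above both other classes. The T cell receptor genes Trac and Trbc2 had 1 UMI each in the control and 0 in Cd4cre, and Trbc1 had 0 and 2. The 8 T cell markers, Cd3 genes aside, summed to 145 and 120 CPM in members, with UMIs in 26 and 32 cells, against 3647 and 3490 CPM in T cells. All 8 were at least 2-fold below T cells, as were 434 of 3259 genes (13.3%). All 8 macrophage markers that reached the minimum were at least 2-fold below macrophages, as were 475 of 3163 genes (15.0%). These 8 include Chil3 and Lyz2, which chose the macrophages, so the place of both was set by the rules. Of the 6 NK cell markers, 5 had no UMI and Klrk1 had 1 and 1. All 4 mast cell and basophil markers were at 0. Of the conventional dendritic cell markers Xcr1 was at 0, but Clec9a had 60.0 and 124 CPM and Cd209a 101 and 99.0, both at or below 1.35 CPM in macrophages and T cells. Clec10a had 167 and 226 CPM. Other markers of conventional dendritic cells went the other way. Of those that reached the minimum, 2 of 3 for type 1 and 3 of 5 for type 2 were at least 2-fold below macrophages (15.0% of all genes). At least 2-fold above macrophages were 1 and 2 (20.4% of all genes). The 6 plasma cell markers summed to 1402 and 1232 CPM in members, 183 and 209 in macrophages and 123 and 132 in T cells. Both that reached the minimum, Mzb1 and Xbp1, were at least 4-fold above both classes, as were 160 of 2523 genes (6.34%). Jchain had 2 and 1 UMIs. The 6 monocyte and neutrophil markers summed to 1742 and 2476 CPM, of which Ly6c2 made up 1720 and 2439, and S100a8, S100a9, Csf3r and F13a1 had no UMI. The 8 genes linked to transitional dendritic cells summed to 2131 and 3013 CPM. Of the 4 that reached the minimum, 2, Ly6c2 and Cd8a, were at least 4-fold above both classes (6.34% of all genes). The other 2, Itgax and Klf4, were at least 2-fold below macrophages (15.0% of all genes). At least 2-fold higher in members of both libraries were 644 genes (20.4%) against macrophages and 537 (16.5%) against T cells. The furthest below macrophages were Chil3 (28.4 and 20.7 CPM in members, held down by the rule), Spp1, Ccl6, Ccl7, Fn1, Arg1, Lyz2 and Ccl8. The furthest below T cells were the 3 Cd3 genes, set to 0 by the rule, and Il13, Il17a, Tnfrsf4, Cxcr6 and Icos.

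The rarer macrophage UMIs lay in a few cells. The 10 macrophage markers summed to 32 UMIs in 10 control cells and 97 UMIs in 11 Cd4cre cells, from 0 to 5765 CPM and from 0 to 4946 CPM per cell, with medians of 0. Marco was at 0. Lyz2 was at 3 UMIs or more in 1 and 3 cells, and Tgfbi at 6 or more in 1 and 5. None of the cells with that much Tgfbi had 6 UMIs of Siglech. In the 6 Cd4cre cells with 2 to 5 UMIs of Siglech, Tgfbi was at 3253 CPM, above the 2240 CPM of Cd4cre macrophages, while Irf8 (1209 CPM) and Tcf4 (709 CPM) were also present.

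Nfe2l2 (chromosome 2, 75675513 to 75704641, minus strand) was higher in members of the library labelled Cd4cre. It had 0, 0 and 3 UMIs per control cell (lowest, median, highest) and 0, 1 and 9 per Cd4cre cell, so the libraries overlapped. In sum it had 21 UMIs in 16 control cells (66.3 CPM, 41.0 to 101) and 88 in 39 Cd4cre cells (203 CPM, 163 to 250), a log2 ratio of 1.61 (0.91 to 2.37). In T cells the levels were 31.9 and 172 CPM (2.43) and in macrophages 110.2 and 158 CPM (0.52). With cells thinned to 2000 UMIs, 17.1% and 33.3% of members had an Nfe2l2 UMI, and 6.82% and 29.2% of T cells. With only the cells of at least 6 UMIs of Siglech the ratio was 1.88 (1.12 to 2.73), and it lay between 1.38 and 1.88 under the alternatives. The reads come from the 5' ends of transcripts and the deleted exons are not in the labels, so a level says nothing of the protein. NRF2's inhibitor Keap1 had 50.5 and 50.7 CPM, and its competitor Bach1 50.5 and 46.1.

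**Figure D3:**
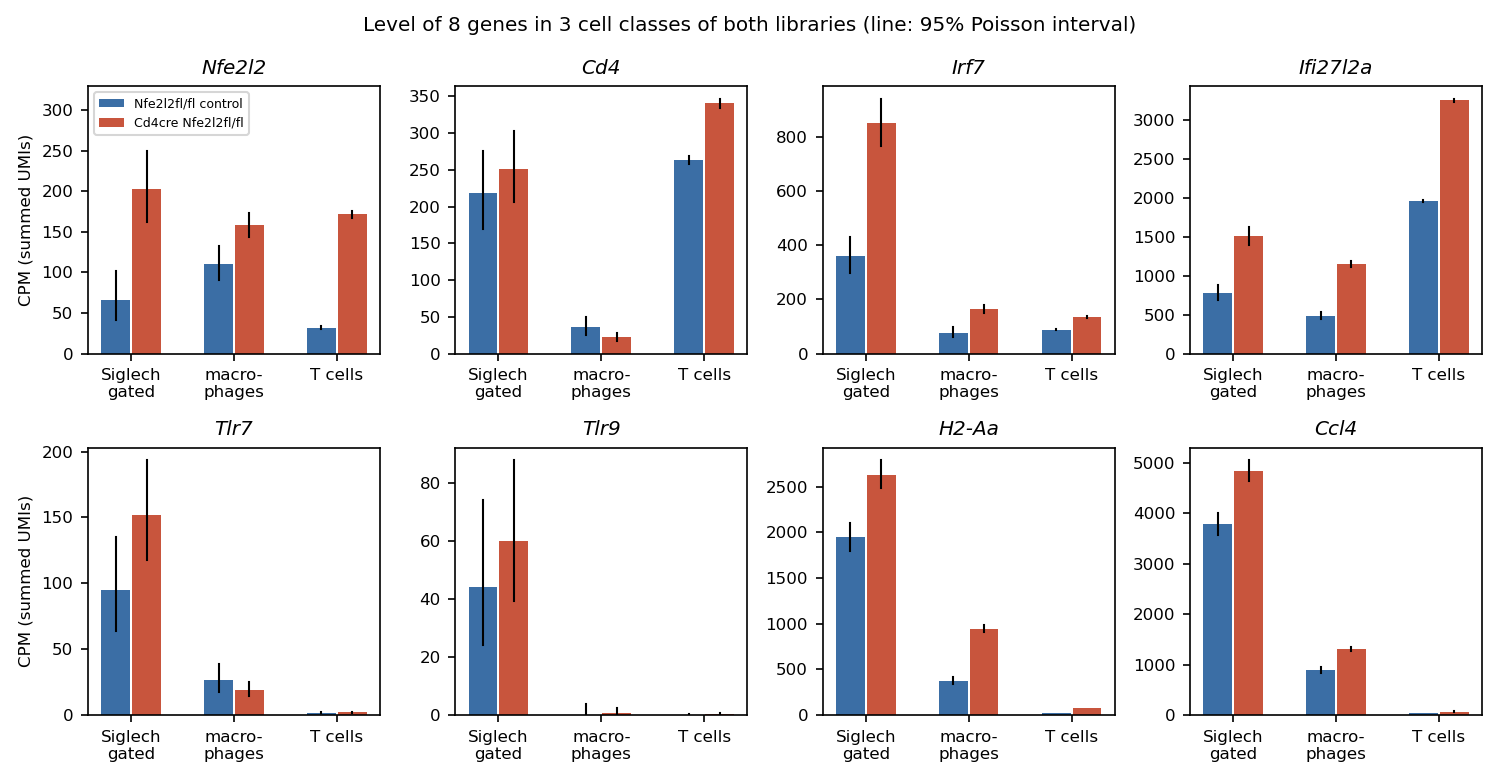
Levels (CPM of summed UMIs, each axis from 0) of 8 genes in Siglech-gated cells, macrophages and T cells of the control (blue) and Cd4cre (red) libraries, with lines for the 95% Poisson interval of counting error. Nfe2l2 is higher in Cd4cre in all 3 classes, Cd4 in members is nearer to its level in T cells than in macrophages, and Tlr9 is near 0 outside the members.

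Genes known as NRF2 targets lay on both sides of equal levels. Of 31 measured, 13 had at least 20 UMIs, of which 6 were higher and 7 lower. The median log2 ratio was -0.05 (-0.23 to 0.32). Nqo1 had no UMI in any member. Gclm, which modifies the enzyme that starts making glutathione, had 117 and 113 CPM, Prdx1, a peroxiredoxin, 357 and 378, and Txn1, thioredoxin, 215 and 270. Fth1, the ferritin heavy chain, had 12, 68 and 201 UMIs per control cell and 15, 93 and 309 per Cd4cre cell (log2 ratio of CPM 0.49, 0.43 to 0.55). In T cells that ratio was 0.31 and in macrophages -0.55. Tkt, a transketolase of the pentose phosphate pathway, had 319 and 198 CPM (-0.69, -1.12 to -0.26).

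Between libraries few genes passed a 2-fold ratio (10 CPM added, at least 50 CPM in members of a library). They were 52 of 3210 (1.62%) higher in Cd4cre and 56 (1.74%) lower. By the same rule 35 and 29 of 2738 genes passed in macrophages and 10 and 3 of 2850 in T cells. These counts cannot be compared between classes, because the minimum of 50 CPM rests on far fewer UMIs in members. Summed depth in control and Cd4cre was 316802 and 434132 UMIs in members and 1007550 and 2957623 in macrophages. In T cells it was 39394389 and 32230520. Of the 22 plasmacytoid markers none passed 2-fold, 16 were higher, and the list had a median log2 ratio of 0.07 (-0.13 to 0.22). Among those whose interval missed 0 was Ly6c2, a surface protein shared with monocytes, at 1720 and 2439 CPM (0.50, 0.35 to 0.66), with 10.5 and 50.5 CPM in T cells and 25.8 and 116 in macrophages. Leaving out cells with at most 5 UMIs of Siglech kept 38 of the 52 genes and 48 of the 56.

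**Figure D4:**
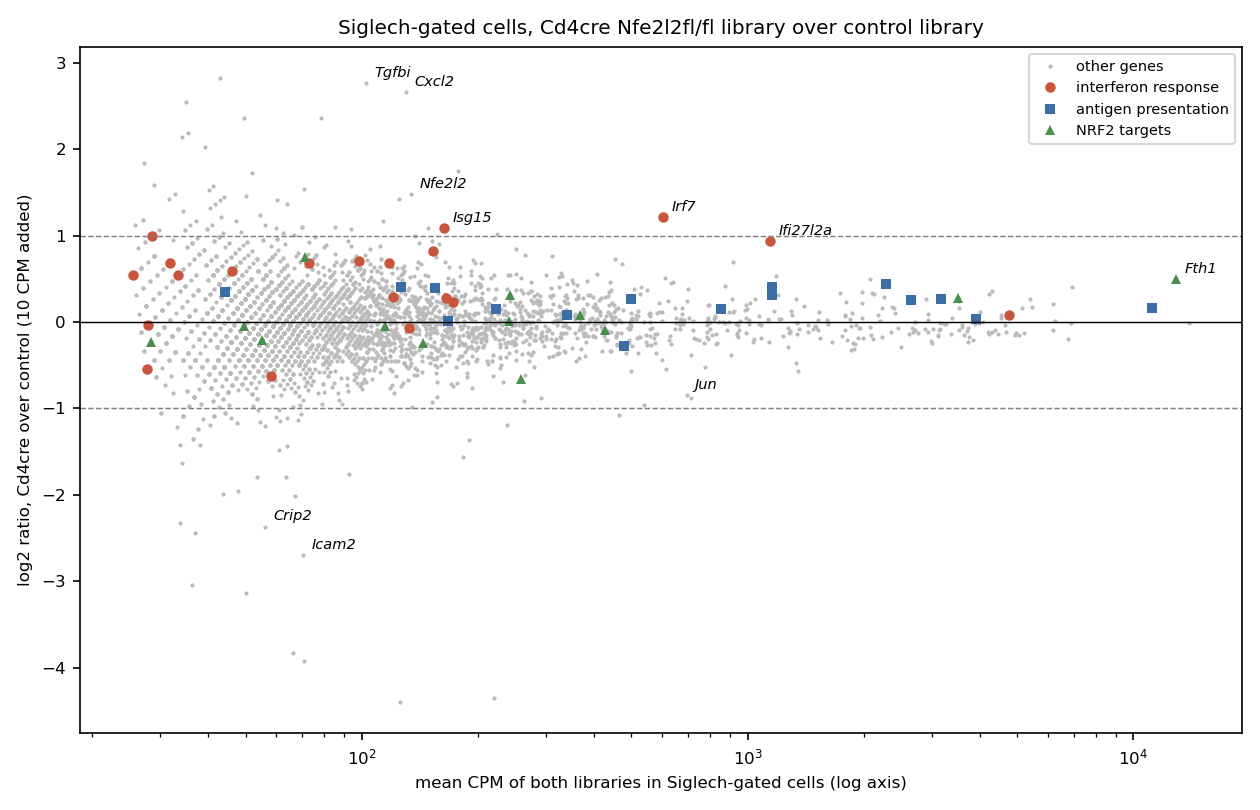
Log2 ratio of Cd4cre over control (vertical axis, 10 CPM added) against the mean CPM of both libraries (horizontal axis, logarithmic) for genes in members, with dashed lines at 2-fold. Most of the interferon response genes (red circles) lie above 0, antigen presentation genes (blue squares), all but 1, lie close above 0, and NRF2 targets (green triangles) lie on both sides.

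Most interferon response genes were higher in Cd4cre. Irf7, the factor that drives interferon gene transcription, had 0, 2 and 12 UMIs per control cell (lowest, median, highest) and 0, 2 and 53 per Cd4cre cell. The medians were equal, and the 3 highest Cd4cre cells, at 53, 48 and 45 UMIs, held 39.6% of the 369. In sum Irf7 was at 360 (297 to 432) and 850.0 (766 to 941) CPM, a log2 ratio of 1.24 (0.93 to 1.56). Ifi27l2a differed across more cells, with 0, 4 and 26 UMIs per control cell and 0, 8 and 55 per Cd4cre cell (783 and 1506 CPM, 0.94, 0.73 to 1.16). Isg15, a ubiquitin-like modifier, was seen in 10 and 23 cells (101 and 226 CPM, 1.16, 0.57 to 1.78).

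Over the 41 measured genes of that list, 20 had at least 20 UMIs, 16 of them were higher, and the median log2 ratio was 0.57 (0.23 to 0.70), against -0.02 over 4524 genes. Past 2-fold were 2 of 14 tested, Irf7 and Isg15, against 1.62% of all. Summed over the list, control cells had between 4 and 98 UMIs with a median of 53, and Cd4cre cells between 13 and 180 with a median of 59. Without the 3 cells highest in that sum in each library, Irf7 was at 323 and 547 CPM (0.76, 0.41 to 1.12), Isg15 at 64.7 and 95.7 CPM (0.57, -0.26 to 1.44) and Ifi27l2a at 725 and 1544 (1.09), and the list median was 0.31. The other classes differed in the same direction. Ifi27l2a was at 1964 and 3259 CPM in T cells and 484 and 1153 in macrophages, and Irf7 at 88.1 and 136 and at 77.4 and 163. A part of free RNA in the members' values was not tested. Ifit3 had no UMI in any member.

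Among genes seen in at least 5 members of the higher library, those furthest higher in Cd4cre included Tgfbi, Cxcl2 and Il1b, which lay in few cells and are high in macrophages. By log2 ratio with 10 CPM added, the first 12 were Tgfbi (2.76), Cxcl2 (2.66), Gatm (2.55), Ccr7 (2.36), Il1b (2.36), Ly6k (2.19), Nr4a2 (2.02), Fabp5 (1.75), Tnf (1.57), Lats2 (1.53), Nfe2l2 (1.48) and Wfdc17 (1.48). Tgfbi, a matrix protein, had 6 UMIs in 1 control cell and 81 in 6 Cd4cre cells. Cxcl2, a neutrophil chemokine, had 9 in 2 and 101 in 9, and Il1b, interleukin-1 beta, 6 in 2 and 60 in 6. With only the cells of at least 6 UMIs of Siglech these 3 were at 0 and 3, 0 and 4, and 0 and 1 UMIs in the control and Cd4cre libraries, and 6 of the 12 were still past 2-fold. Tgfbi was also higher in macrophages (1127 and 2240 CPM) and in T cells (7.21 and 46.4). A part of RNA from macrophages in these values was not tested.

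Others of the 12 were spread over more cells. Lats2, a kinase of the Hippo pathway, had 5 UMIs in 5 control cells and 28 in 22 Cd4cre cells (log2 ratio of CPM 2.03, 0.64 to 3.76). Tnf had 5 UMIs in 5 cells and 29 in 15 (2.08, 0.70 to 3.81), and Nr4a2, a nuclear receptor induced on activation, 3 in 2 and 30 in 12. Ccr7, the receptor that leads mature dendritic cells to lymph nodes, had 3 UMIs in 3 cells and 39 in 7, but 23 of the 39 were in 1 cell. Fabp5, a fatty acid carrier, had 24 and 121 UMIs, of which 10 and 72 were in 1 cell of each library.

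Some of the genes furthest lower in Cd4cre rested on 1 control cell. By log2 ratio with 10 CPM added, the 12 furthest lower of those seen in at least 5 control members were Icam2 (-2.70), Crip2 (-2.37), Rbm33 (-2.30), Hist3h2ba (-1.95), App (-1.79), Plbd1 (-1.79), Tmem176b (-1.76), Selenop (-1.48), Dse (-1.43), Rmnd5a (-1.42), Bad (-1.42) and Pde4dip (-1.35). The cell held 11463 UMIs, the most of any control member, with 19 of Siglech and 14 of Ly6d. It also held endothelial transcripts: all 19 control UMIs of the tight junction gene Cldn5, all 45 of Ramp2, 78 of 79 of Ly6c1, 21 of 22 of Egfl7 and 35 of 41 of the adhesion gene Icam2. Without it, 39 genes were lower in place of 56, of which 34 were among the 56, and 8 of the 12 were still past 2-fold. Icam2 then had a log2 ratio of CPM of -0.77 (-2.82 to 1.20) in place of -3.49, and Crip2 -2.09 in place of -3.13. Plbd1 had 27 of 33 control UMIs in 1 other cell, which had 2 UMIs of Siglech and 0 of Ly6d.

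Not all endothelial genes of the members were in that cell. Cdh5, VE-cadherin, was seen in 25 control and 27 Cd4cre cells, with 155 and 106 CPM against 0.993 and 3.38 in macrophages and 2.39 and 1.68 in T cells. The control cell with Cldn5 held 16 of the 49 control UMIs of Cdh5, and the next highest control cell held 3, so the higher control level leans on that cell. Epcam, an epithelial adhesion gene, was at 53.7 and 53.0 CPM. Lower genes that were spread over cells included Rbm33 (16 UMIs in 11 cells and 1 UMI in 1), Dse, an enzyme of dermatan sulfate (31 in 19 and 13 in 11), and the cell death gene Bad (17 in 14 and 6 in 6).

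Immediate early genes, which rise when cells are dissociated, included some that were lower in Cd4cre. Jun had 0, 2 and 61 UMIs per control cell (lowest, median, highest) and 0, 0 and 50 per Cd4cre cell, at 896 and 493 CPM (log2 ratio -0.86, -1.13 to -0.60). Fos had 732 and 498 CPM (-0.56) and Zfp36, which destabilises cytokine mRNA, 1556 and 1119 (-0.48). In T cells Jun was at 230.1 and 219.8 CPM and in macrophages at 570 and 568. Over the 16 genes of the list 6 were higher and the median was -0.10 (-0.45 to 0.18). Mitochondrial UMIs had a median of 2.94% and 3.02% of each member's total.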

How the data were processed

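The 2 libraries were made with the 5' single-cell chemistry from lung cells labelled CD4+, per the labels' protocols. The values are whole counts of UMIs per gene and barcode, as deposited by the authors, with barcode and gene name tables of the same order. Cell Ranger 4.0.0 and the build GRCm38 are named, per the submitters' processing notes, and the annotation and cell calling are not given in the sources used here. Total counts were 41391255 in the control and 38744058 in Cd4cre.

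Barcodes with at least 500 genes and under 10% mitochondrial UMIs were kept, members, macrophages and T cells were chosen by the UMI rules in the report, and no doublet caller was run. UMIs were summed per library and class and divided by the class total to give CPM. With 1 library per group no test was run: levels carry exact Poisson intervals, shares exact Clopper-Pearson intervals, differences of shares Newcombe intervals and ratios exact conditional intervals, all at 95% and all for counting error only. A gene was called 4-fold above both classes when the lowest of 4 log2 ratios (10 CPM added) passed, at 50 CPM or more in members of both libraries, and 2-fold between libraries at 50 CPM or more in members of a library. Named genes were the 30 highest by the lowest ratio, the 8 furthest below each class, and the 12 furthest higher and lower between libraries among genes with UMIs in at least 5 members of the higher library. These excluded antigen receptor, ribosomal protein, mitochondrial, hemoglobin and sex-linked genes and unnamed gene models. Genes of the lists were named by abundance, by size of ratio or for having 0 UMIs. List medians used genes with at least 20 UMIs in all members. Shares of cells were also computed after thinning each cell to 2000 UMIs, which left out 2 and 1 members, 75 and 147 macrophages and 102 and 115 T cells. Upstream windows came from RefSeq and exons from the GENCODE annotation of GRCm38. Alternatives changed the gate, the scaling, the CPM added, the minimum level and the members used. The members, the rule and all gene lists were chosen with earlier results of these data known. Some genes of the lists are not reported here. The scripts were tested on simulated data. Python 3.11.15, numpy 2.4.6, scipy 1.17.1 and matplotlib 3.10.9 were used.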

Additional observations from a re-analysis of the deposited data

How the results depend on the processing

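No paired analysis was possible because there is 1 library a group. Of the recomputed shares, counts of genes, Nfe2l2 ratio and interferon list median, 63 stayed within the tolerance set for each (1.5 times for a count, the interval around the reported value otherwise) and 13 moved. The difference in the share of members changed sign, from 0.176 points to -5.36 points when taken outside the T cells. The 160 genes 4-fold above both classes became 61 with 50 CPM added. The 52 genes 2-fold higher in Cd4cre became 92 with mitochondrial and ribosomal genes out of the total, 80 with 1 CPM added, 12 with 50 CPM added, 189 at a minimum of 20 CPM and 14 at 100 CPM. The 56 lower genes became 118, 85, 21, 192 and 13 under the same settings, and 32 with each gene's highest member left out. The ratio of Nfe2l2 ranged from 1.38 to 1.88 and the interferon list median from 0.31 to 0.68. Of single genes, 4 values reversed: Gatm (0.0) and Wfdc17 (-0.68) with only members of at least 6 UMIs of Siglech, and Fabp5 (-0.35) and Wfdc17 (-0.60) with members carrying markers of other types left out. The Siglech minimum of 6 and the removal of each gene's highest member, of the cell with Cldn5 or of the 3 cells highest in the interferon list were chosen after seeing the data. Depth limited genes under 9.47 and 6.91 CPM, the levels that 3 UMIs stand for.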
